A study of Mus musculus with 6 samples.

Results

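The transcripts described here are those that stood clearly higher in the tibialis anterior, a fast muscle at the front of the lower leg, than in the superficial masseter, a jaw closer, after the best known groups had been set aside. A probe set, the group of short probes that reads 1 transcript on this array design, was taken when it had 1 gene symbol, when its lowest tibialis anterior signal was at least 60, and when that signal was at least 1.5 times its highest masseter signal. Left out by name were genes whose symbols start with Slc, Kcn, Scn, Clcn, Col, Hox, Myh, Myl, Tnn or Ankrd, and Actc1, Actn3, Myom2, Car3, Lbx1, Tbx1, Peg3, Tnfrsf12a, Il15, Tln1, Thbs4, Prnp, Gadd45b, Ccn1, Hbegf, Csrp3, Lmcd1, Pfkm and Gbe1. This left 46 of 22690 probe sets, which name 43 of the 12393 genes with a named probe set. Itm2a, Phka1 and Eif2s2 are read by 2 of the 46 each. Without the exclusions 77 of the 20380 probe sets with 1 symbol met the rule, or 0.378%. The 31 that the exclusions left out had a median fold of 3.67, against 2.22 for the 46, with probe sets whose masseter mean lay under a signal of 28.6, the level of a filter on low signal, counted at their lower bound, so the transcripts described here are mostly those with smaller differences.

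The study compared 3 samples of tibialis anterior with 3 samples of superficial masseter from normal adult female C57Bl/6 mice aged 6 months, with 1 array per sample. No treatment or genetic change is given for either muscle, and whether the 3 samples of each muscle were taken from different mice is not given in the sources used, so the spread between them may be technical. Values are the deposited signal intensities, on which every array has the same 2% trimmed mean of 150.1. A fold is the ratio of the geometric mean signals, tibialis anterior over masseter, and a log2 difference is tibialis anterior minus masseter with the standard error (SE) of limma, n = 3 arrays per muscle. The rule chose the transcripts on these same signals. Every difference of a chosen probe set is therefore a description without a test.

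Limb and jaw muscles arise from different embryonic sources, the limb muscles from somites and the jaw closers from the mesoderm of the head, and the adult muscles differ in fibre types, nerve supply and daily use. A fast limb muscle draws heavily on glycogen, whose breakdown is switched on by phosphorylase kinase when calcium rises in the contracting fibre. The 43 genes do not belong to 1 pathway. By known roles, assigned after their values were seen, 8 serve fuel and organelle metabolism, 6 are enzymes of lipids, inositol phosphates, polyamines, arginine residues or nucleotides, 9 act in signalling and 4 in sarcomere or cytoskeleton. A further 6 are membrane, adhesion or secreted proteins, 6 act in translation and protein turnover, and 4 are transcription regulators or have other roles.

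In 42 of the 46 probe sets the masseter mean reached that filter level, and their folds ran from 1.66 for Acyp1 to 5.41 for Padi2. The selected probe sets of Parm1, Samhd1, Mybph and Tbl2 lay under that level in the masseter, so their folds are given as lower bounds. With these bounds 30 of the 46 were at least 2-fold. Their median log2 difference was 1.15, against -0.02 over the 13576 probe sets whose mean over the 6 arrays passed the filter. Of the 46, 45 passed that filter and Parm1 did not. In the limma fit over all 13576 probe sets, 28 of the 46 were past an adjusted p of 0.05 and higher in the tibialis anterior, where 0.619% of all probe sets were called higher and 0.56% lower. The rule used the same contrast, so nothing is read from that count, which was 1 without the intensity trend and 12 to 14 with a single array left out and no block.

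**Figure D1:**
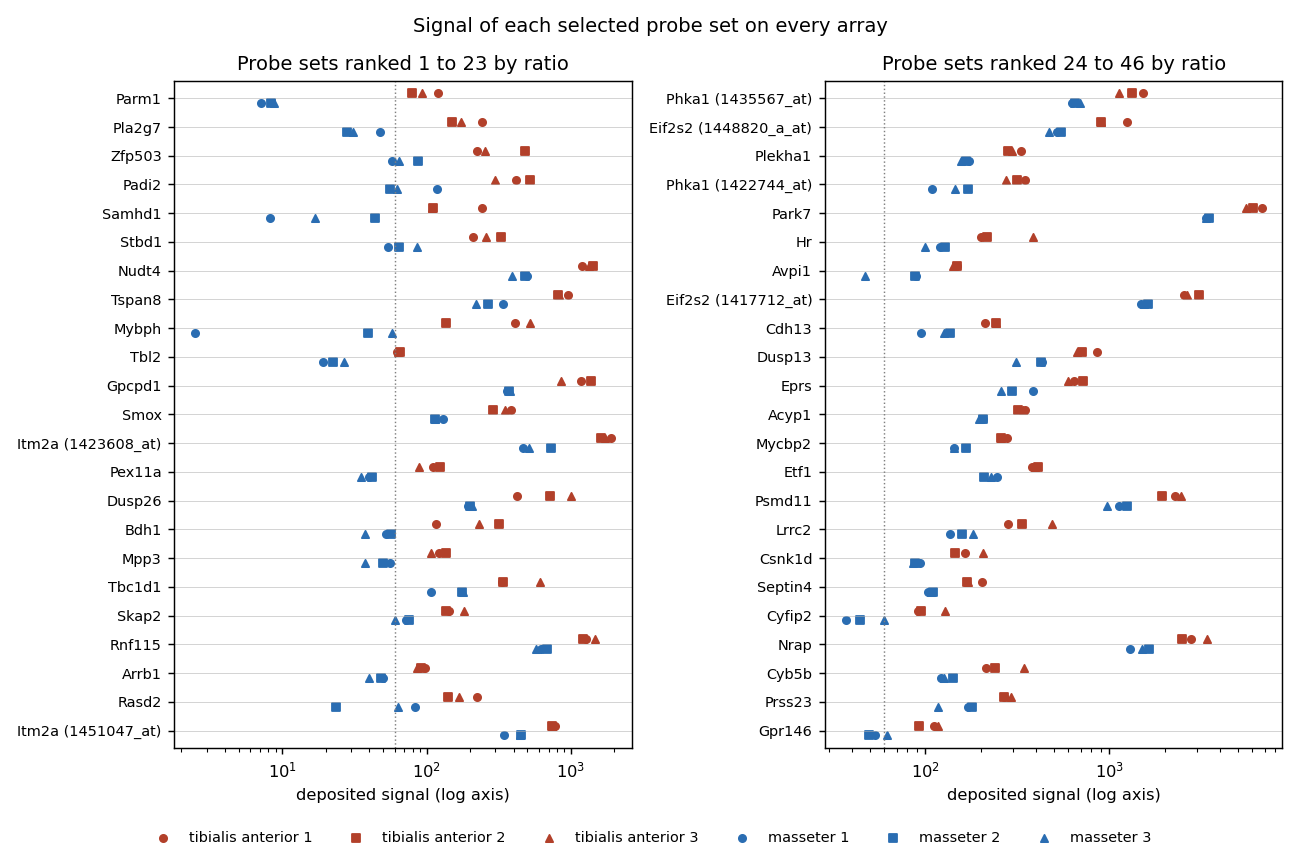
Deposited signal (log axis) of the 46 selected probe sets on each array, ordered by the ratio of the lowest tibialis anterior to the highest masseter signal; red marks are tibialis anterior 1 to 3, blue marks masseter 1 to 3, and the dotted line is the signal of 60 used by the rule. Parm1 is drawn first, but its masseter signals of 7.1 to 8.8 lie under the filter level; Pla2g7 follows with a ratio of 3.16, and Gpr146 lies on the limit at 1.5.

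**Figure D2:**
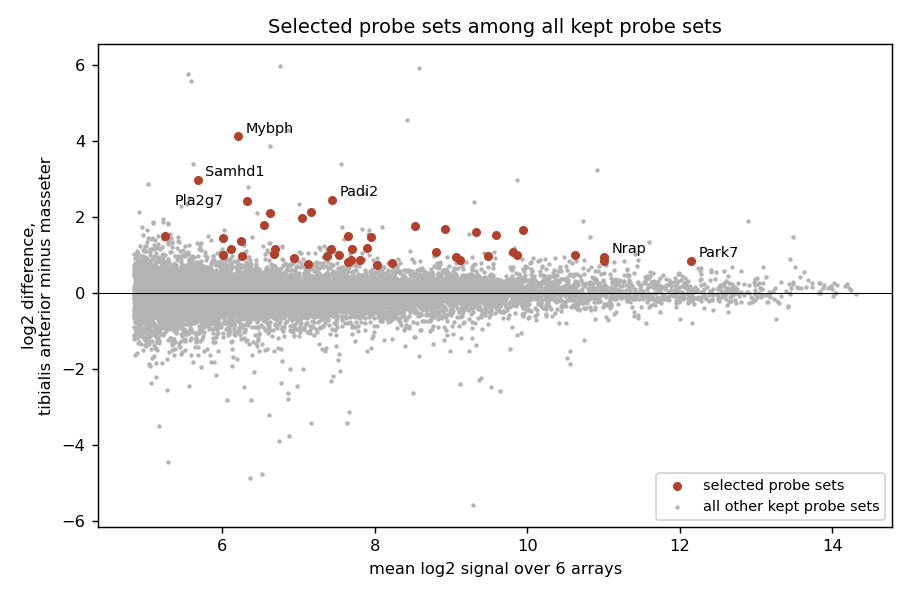
Log2 difference, tibialis anterior minus masseter, against mean log2 signal over the 6 arrays, for the 45 selected probe sets that passed the filter (red) and the other kept probe sets (grey). The selected probe sets lie between 0.73 (Acyp1) and 4.11 (Mybph, whose masseter mean lies under the filter level) on the vertical axis and spread over most of the range of signal.

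Marker signals of some other cell types and 1 control for RNA quality also differed between the muscles. The part of cell types and RNA quality in the differences was not tested. Both muscles were rich in skeletal muscle markers, whose 7 measured genes summed to 73601 to 77693 in the tibialis anterior and 63831 to 80802 in the masseter. The summed signal of 7 smooth muscle and pericyte markers was 5858 to 7422 in the tibialis anterior and 4353 to 5253 in the masseter, with 0 of the 7 called. Most of that sum is Rgs5 (2873 to 4169 in the tibialis anterior, 2230 to 2855 in the masseter) and Acta2 (1267 to 2395, and 1282 to 1426), while Smtn was lower in every tibialis anterior sample (136 to 146, and 227 to 310) and the signals of Acta2, Tagln, Pdgfrb, Myh11 and Cnn1 overlapped. The sum of 9 endothelial markers was 1865 to 2692 in the tibialis anterior and 1838 to 1961 in the masseter. These ranges overlapped, and 0 of the 9 were called. The sums of 9 adipocyte markers (13728 to 16184 in the tibialis anterior, 18602 to 20711 in the masseter) and 7 nerve and Schwann cell markers (654 to 852, and 1040 to 1143) were lower in every tibialis anterior sample. Most of the adipocyte sum is Lpl (8431 to 11842.5 in the tibialis anterior, 12148 to 12809 in the masseter). Fabp4, Plin4, Scd1 and Retn overlapped, and 2 of the 9 were called lower. Most of the nerve sum is Mbp and Pmp22, both lower in every tibialis anterior sample. Sox10, Gfap and S100b overlapped, and 0 of the 7 were called. Signals of 10 tendon and fibroblast markers (5276 to 6386 in the tibialis anterior, 5738 to 6547 in the masseter), 13 immune markers (961 to 1736, and 1178 to 1731) and 8 skin markers (205 to 273, and 263 to 367) overlapped. The 4 measured erythroid markers summed to 136 to 180.3 in the tibialis anterior and 231 to 249 in the masseter, with Hba-a1, Slc4a1 and Epb42 under the filter level. Salivary markers summed to 2509 to 5830 in the tibialis anterior, and to 52825, 7753 and 3312 in masseter 1, 2 and 3, so masseter 1 stood apart. Without masseter 1 the median log2 difference of the 46 probe sets was 1.13 in place of 1.15, and 29 in place of 30 were at least 2-fold. The rule sets every tibialis anterior signal above every masseter signal, so little could change and nothing is read from this. Masseter 2, which stayed in, also had a salivary sum above every tibialis anterior sum. A control for RNA integrity, the Gapdh signal at the 3' end over that at the 5' end, was 1.94 ± 0.11 in the tibialis anterior and 2.66 ± 0.23 in the masseter (SD, n = 3 each). The same ratio of beta-actin was 2.70 ± 0.11 in the tibialis anterior and 2.96 ± 0.34 in the masseter, and there the muscles overlapped. In whole muscle, fewer cells of a type and less RNA per cell cannot be told apart.

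Genes of glycogen and fuel use formed the first group. Phka1, the muscle form of the regulatory alpha subunit of phosphorylase kinase, was read by 2 selected probe sets (1435567_at and 1422744_at). The brighter had signals of 1529.9, 1335 and 1130.5 in the tibialis anterior, against 630.4, 650 and 691 in the masseter, and the dimmer 350.3, 316 and 274 in the tibialis anterior, against 109, 170.2 and 145 in the masseter. The groups do not overlap in either, as the rule requires, and the log2 differences of 1.01 ± 0.16 and 1.16 ± 0.21 were close to each other. Another Phka1 probe set, outside the rule, also read higher in every tibialis anterior sample, at 1453, 1364 and 1167 in the tibialis anterior, against 797, 865 and 904 in the masseter. That probe set gave a smaller log2 difference of 0.63 ± 0.15. Stbd1, which tethers glycogen to membranes, had signals of 211, 326 and 259 in the tibialis anterior, against 54.4, 64.7 and 85.8 in the masseter, a fold of 3.89. Tbc1d1, a Rab GTPase-activating protein through which insulin and AMP-activated kinase act on glucose transporter traffic, had 332, 339.5 and 614 in the tibialis anterior, against 107, 176 and 178 in the masseter. Tibialis anterior 3 was the highest Tbc1d1 sample, masseter 1 the lowest, and the log2 difference was 1.46 ± 0.20.

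Transcripts of mitochondrial, peroxisomal and redox proteins, and of an acylphosphatase, had modest to high signals. Bdh1, the mitochondrial dehydrogenase that starts the use of the ketone body 3-hydroxybutyrate, had signals of 116, 318 and 231 in the tibialis anterior, against 52.6, 56.4 and 37.2 in the masseter. The tibialis anterior samples ranged 2.74-fold, with sample 1 lowest, and the masseter samples 1.52-fold. Pex11a, a peroxisomal membrane protein of peroxisome division, had 111, 123 and 88.5 in the tibialis anterior, against 39.6, 41.7 and 35.4 in the masseter. The other Pex11a probe set was brighter and gave a smaller log2 difference, 0.66 ± 0.18 against 1.46 ± 0.24. Park7, or DJ-1, a redox-sensitive protein that protects against oxidative stress, was the brightest selected transcript, at 6738, 6054 and 5568 in the tibialis anterior, against 3343, 3476 and 3371 in the masseter. Its log2 difference of 0.85 ± 0.12 was among the smaller ones, but the masseter samples differed by little, and its other probe set (0.87 ± 0.12) also kept the muscles apart. Cyb5b, the cytochrome b5 of the outer mitochondrial membrane, and Acyp1, an acylphosphatase, were 2.01-fold and 1.66-fold higher.

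The enzymes of small molecules held some of the clearest differences, with a median fold of 3.68 over 6 genes. Pla2g7, which hydrolyses platelet-activating factor and oxidised phospholipids, had signals of 244, 150.2 and 172 in the tibialis anterior, against 47.5, 27.9 and 31.0 in the masseter. The groups stood well apart, with a log2 difference of 2.42 ± 0.21. Padi2, a peptidylarginine deiminase that converts arginine residues of proteins to citrulline, had 418, 519 and 299.7 in the tibialis anterior, against 118, 55.5 and 62.4 in the masseter. Masseter 1 was the highest masseter sample, and the lowest tibialis anterior sample was still 2.53 times masseter 1. Samhd1, which breaks down deoxynucleotide triphosphates, had 244, 110.5 and 109 in the tibialis anterior, against 8.2, 44.1 and 16.8 in the masseter on probe set 1420272_at. By that probe set it was at least 4.33-fold higher in the tibialis anterior. That bound sets masseter 1 and 3, whose signals were under the filter level, to that level and keeps masseter 2 as measured. Other kept Samhd1 probe sets read higher masseter signals and smaller differences. Probe set 1418131_at had 136, 121 and 137 in the tibialis anterior, against 51.5, 99.3 and 104 in the masseter (0.70 ± 0.26). In 1434438_at the muscles overlapped (0.31 ± 0.24).

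Smox, spermine oxidase, an enzyme of polyamine breakdown, had signals of 385, 291 and 347 in the tibialis anterior, against 129, 114 and 115 in the masseter. The masseter samples were alike, and the log2 difference was 1.51 ± 0.17. Nudt4, which removes phosphate from diphosphoinositol polyphosphates, had 1189, 1422 and 1340.4 in the tibialis anterior, against 495, 481 and 394 in the masseter. Gpcpd1, a phosphodiesterase that splits glycerophosphocholine, had 1176, 1373 and 859.7 in the tibialis anterior, against 361, 371 and 376 in the masseter. The Gpcpd1 masseter signals differed by little, and the log2 difference was 1.60 ± 0.17.

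Among membrane, adhesion and secreted proteins, Parm1, a mucin-like transmembrane protein, was low in the masseter by its selected probe set. It had signals of 119.6, 79.4 and 92.8 in the tibialis anterior, against 7.1, 8.4 and 8.8 in the masseter on probe set 1424214_at. The masseter values lay far under the filter level, so the transcript was at least 3.35-fold higher in the tibialis anterior by that probe set. Its other probe set, 1428891_at, was brighter and gave 362, 227 and 192 in the tibialis anterior, against 156, 96.4 and 114 in the masseter, a log2 difference of 1.07 ± 0.19. The direction was shared, and the Parm1 transcript was plainly measured in the masseter by the second probe set.

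Tspan8, a tetraspanin of the cell surface, had signals of 959, 809 and 824 in the tibialis anterior, against 340.2, 265 and 221 in the masseter, or 3.18-fold higher. Itm2a, a membrane protein made in developing muscle and in T cells, had 1901, 1619.5 and 1721 in the tibialis anterior, against 468, 728 and 509 in the masseter on its brighter probe set. The dimmer Itm2a probe set had 772, 744 and 744 in the tibialis anterior, against 345, 453 and 443 in the masseter, a smaller log2 difference of 0.87 ± 0.16 against 1.64 ± 0.18. Mpp3, a scaffold of the membrane-associated guanylate kinase family, had 122, 137 and 108 in the tibialis anterior, against 55.6, 50.3 and 37.5 in the masseter. Cdh13, the GPI-anchored T-cadherin of endothelium, smooth muscle and muscle fibres, had 212, 244 and 244 in the tibialis anterior, against 95.3, 136 and 127 in the masseter. Prss23, a serine protease, lay just inside the rule at 1.81-fold.

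The signalling genes had smaller differences, with a median fold of 2.00 over 9 genes. Dusp26, a dual-specificity phosphatase, had signals of 426, 719 and 1003 in the tibialis anterior, against 192, 201 and 206 in the masseter. The masseter samples stood within a narrow band and the tibialis anterior samples ranged 2.36-fold, with sample 3 highest. Dusp13, whose gene encodes phosphatases of skeletal muscle and testis, had 854, 709 and 668 in the tibialis anterior, against 430.5, 425 and 311 in the masseter. Rasd2, a small GTPase also called Rhes, had 225, 139.7 and 166 in the tibialis anterior, against 83.6, 23.5 and 63.4 in the masseter, and masseter 2 was far below the other samples.

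Skap2, an adaptor of Src family kinases, had signals of 144, 137 and 182 in the tibialis anterior, against 72.5, 75.5 and 60.5 in the masseter. Arrb1, beta-arrestin 1, which ends signalling of G protein-coupled receptors and carries them inward, was near the lower signal limit at 97.1, 91.7 and 85.7 in the tibialis anterior, against 49.8, 48.3 and 39.6 in the masseter. Plekha1, an adaptor that binds phosphoinositides, had 334, 281 and 298 in the tibialis anterior, against 173, 167 and 157 in the masseter. The groups were compact for all 3 of these genes, with log2 differences of 1.14 ± 0.22, 1.00 ± 0.24 and 0.87 ± 0.17. Avpi1, a transcript first found as induced by vasopressin, had 149.6, 149 and 141 in the tibialis anterior, against 89.7, 87.8 and 46.9 in the masseter, with masseter 3 well below the rest. Gpr146, a G protein-coupled receptor, and Csnk1d, casein kinase 1 delta, which phosphorylates clock proteins, were 1.95-fold and 1.9-fold higher.

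Mybph varied most among the masseter samples. This myosin-binding protein H of the thick filament had signals of 407, 136 and 524 in the tibialis anterior, against 2.5, 39.0 and 57.3 in the masseter, at least 7.68-fold higher in the tibialis anterior. Only masseter 1 lay under the filter level, and the bound was 6.5-fold without it, 5.88-fold without tibialis anterior 3 and 11.5-fold without tibialis anterior 2. Nrap, a nebulin-related protein that anchors actin at the ends of myofibrils, had tighter groups, at 2768, 2486 and 3387 in the tibialis anterior, against 1301, 1644 and 1507 in the masseter. Septin4, a cytoskeletal GTPase, and Cyfip2, a member of the WAVE complex of actin assembly, were 1.69-fold and 2.24-fold higher. In Cyfip2, Nrap and Mybph the highest sample was tibialis anterior 3.

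Genes of protein synthesis and turnover had the narrowest range of folds, 1.74 to 2.11 over 7 probe sets. Eif2s2, the beta subunit of the initiation factor that brings the first tRNA to the ribosome, had 2536, 3069 and 2664 in the tibialis anterior, against 1484, 1623 and 1539 in the masseter on its brighter selected probe set, and 1243, 898 and 901 in the tibialis anterior, against 523, 550.2 and 472 in the masseter on the dimmer. Every masseter sample lay below every tibialis anterior sample in both, as the rule requires. Eprs, the glutamyl-prolyl-tRNA synthetase, had 641, 718 and 596 in the tibialis anterior, against 385, 295 and 259 in the masseter. Etf1, the factor that releases finished proteins from the ribosome, was 1.74-fold higher on its selected probe set. Its brighter probe set 1424013_at had 574, 505 and 556 in the tibialis anterior, against 558, 489 and 435 in the masseter, where the muscles overlapped, a log2 difference of 0.15 ± 0.15, and 2 other Etf1 probe sets gave 0.37 ± 0.17 and 0.07 ± 0.23. A further probe set of Eif2s2, outside the rule, gave 0.09 ± 0.17 with overlap.

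On the side of protein breakdown, Psmd11, a subunit of the proteasome lid, had signals of 2288, 1934 and 2466 in the tibialis anterior, against 1138, 1256 and 975 in the masseter. Rnf115, a RING ubiquitin ligase, had 1267, 1207 and 1459.7 in the tibialis anterior, against 616, 679.5 and 569 in the masseter, a log2 difference of 1.08 ± 0.15. Its other probe set gave 1.06 ± 0.21, nearly the same value. Mycbp2, a very large ubiquitin ligase best known from nerve terminals, was 1.76-fold higher.

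Of the remaining genes, Zfp503, a zinc finger repressor of transcription also called Nolz1, was the clearest. It had signals of 223, 478 and 253 in the tibialis anterior, against 57.7, 87.7 and 64.5 in the masseter, with tibialis anterior 2 highest. Its log2 difference was 2.12 ± 0.19. Hr, the nuclear receptor corepressor hairless, had 202, 217 and 388 in the tibialis anterior, against 120.3, 128 and 100.1 in the masseter. Lrrc2, a leucine-rich repeat protein, had 282, 337 and 487 in the tibialis anterior, against 136, 158 and 183 in the masseter, and Tbl2, a WD-repeat protein of the endoplasmic reticulum, had 62.1, 65.9 and 63.8 in the tibialis anterior, against 19.2, 22.4 and 26.8 in the masseter. In Hr and Lrrc2 tibialis anterior 3 was the highest sample, whereas the Tbl2 signals of that muscle were nearly equal.

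**Figure D3:**
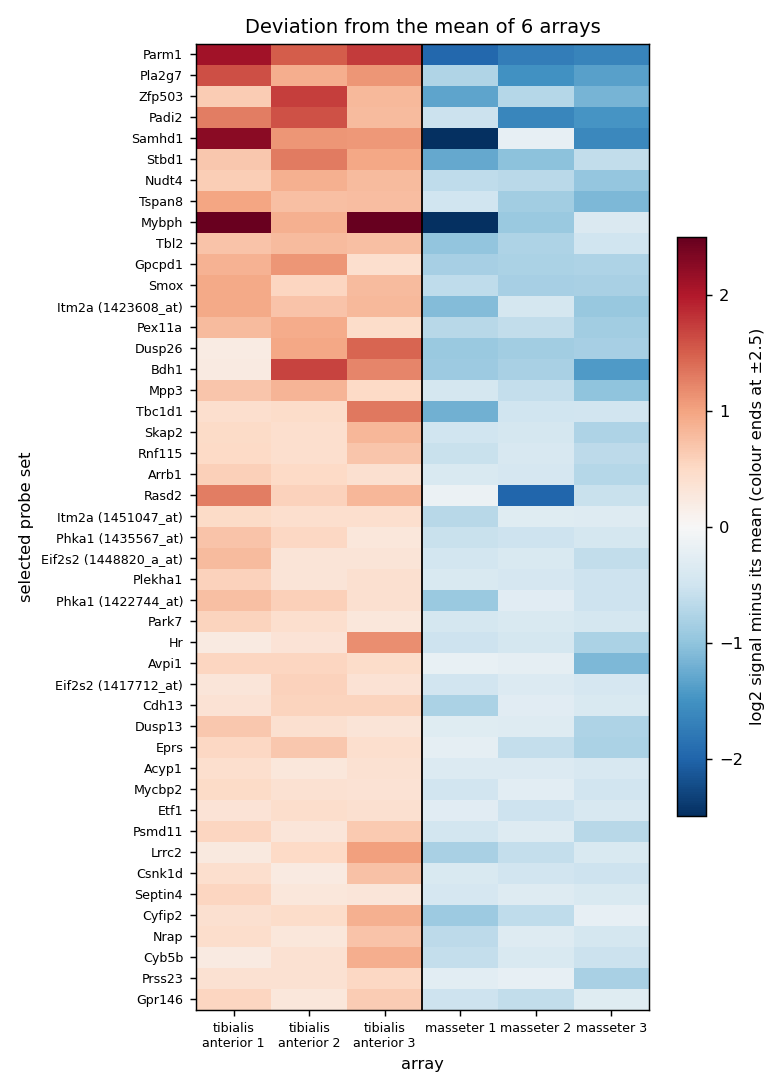
Log2 signal of each selected probe set minus its mean over the 6 arrays (colour, ending at ±2.5), with tibialis anterior 1 to 3 left of the line and masseter 1 to 3 right of it. Uneven rows include Mybph, Samhd1, Zfp503, Bdh1 and Dusp26, and the lower rows, with smaller ratios, are paler and more even.

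The selected transcripts did not follow a single sample. Tibialis anterior 1 was the highest sample in 19 probe sets, tibialis anterior 2 in 12 and tibialis anterior 3 in 15. The lowest sample was masseter 1 in 22, masseter 2 in 6 and masseter 3 in 18. Among the tibialis anterior samples 5 probe sets ranged at least 2-fold (Zfp503, Samhd1, Mybph, Dusp26 and Bdh1), and among the masseter samples 4 did (Padi2, Samhd1, Mybph and Rasd2). The median SD of log2 signal was 0.19 within the tibialis anterior and 0.18 within the masseter, against 0.25 and 0.26 over all kept probe sets, a gap that the rule itself favours.

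Other probe sets of the same genes read the transcripts with other probes on the same arrays. There were 48 of them, for 25 genes, of which 35 passed the filter. Of the 35, 32 had a positive difference, with a median of 0.56, and in 21 all 3 tibialis anterior signals lay above all 3 masseter signals, where 8.63% of all kept probe sets did so. They share samples with the rule, so this is a description. For 11 of 21 genes every other kept probe set kept the muscles apart: Eprs, Nudt4, Park7, Parm1, Pex11a, Phka1, Prss23, Rasd2, Rnf115, Septin4 and Tspan8. In 9 of the 21 genes another kept probe set was brighter than the selected one.

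For 4 genes no other kept probe set kept the muscles apart: Csnk1d, Hr, Tbc1d1 and Tbl2. Csnk1d was the plainest case. Its selected probe set 1418889_a_at had 165, 144 and 205 in the tibialis anterior, against 94.3, 87.8 and 85.5 in the masseter, but the brighter 1437690_x_at had 850.1, 600.1 and 763 in the tibialis anterior, against 770.3, 854 and 969 in the masseter, a log2 difference of -0.24 ± 0.17. The other Hr probe set gave -0.36 ± 0.25, also the opposite sign. Cyb5b had 1 further probe set with a difference of 1.20 ± 0.28 and another, 1417766_at, with 0.00 ± 0.16. Samhd1 probe set 1420273_x_at had 746, 50.7 and 91.9 in the tibialis anterior, against 61.2, 69.0 and 293 in the masseter, with tibialis anterior 1 and masseter 3 far above the rest. The brightest other Psmd11 probe set gave 0.54 ± 0.18, and a dim one the opposite sign (-0.31 ± 0.45). The selected probe sets of Tbc1d1, Rasd2, Eprs, Etf1 and Psmd11 carry the suffix _s_at and that of Acyp1 _x_at, marks of probes that can match several transcripts, so these values are uncertain as to the transcript.

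**Figure D4:**
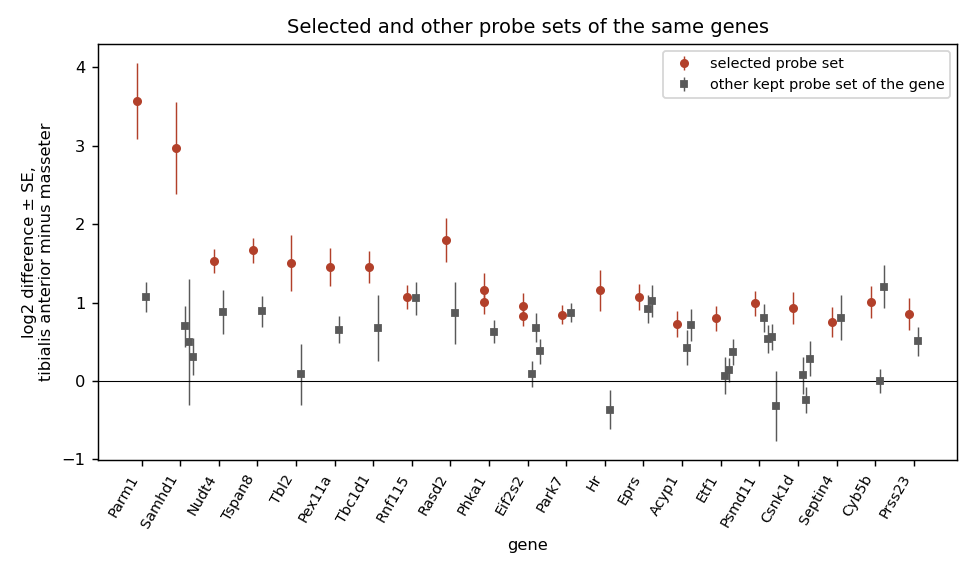
Log2 difference, tibialis anterior minus masseter, with its SE, of the selected probe sets (red circles) and of the other kept probe sets of the same genes (grey squares), for the 21 genes that have both. In most genes the grey squares lie above 0 and below the red circles, and those of Csnk1d and Hr lie near or under 0.

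At the edge of the ratio of 1.5, Gpr146 had a lowest signal of 92.7 in the tibialis anterior against 61.8 in the masseter at its highest, Prss23 269 in the tibialis anterior against 179 in the masseter, Cyb5b 215 in the tibialis anterior against 142 in the masseter and Nrap 2486 in the tibialis anterior against 1644 in the masseter. Just outside were Inha at 88.3 in the tibialis anterior against 59.0 in the masseter, Itgb5 at 693 in the tibialis anterior against 464 in the masseter, Stab2 at 91.7 in the tibialis anterior against 61.5 in the masseter and Tmem140 at 292 in the tibialis anterior against 196 in the masseter. Members with the lowest tibialis anterior minimum were Tbl2, Parm1, Arrb1 and Pex11a, at 62.1, 79.4, 85.7 and 88.5. Numbl, Tgfb2, Zkscan14 and Tdrp met the ratio but fell under 60 with minima of 56.3, 56.1, 54.3 and 53.7.

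Other measured genes of the pathways that hold Pla2g7 and Smox did not pass the test. Lists were counted over each gene's brightest kept probe set, and of all 8316 genes 0.661% were called higher in the tibialis anterior and 0.709% lower. Pla2g7, Smox and Padi2 were chosen by the rule on this same contrast, so nothing is read from their own calls. In the list of phospholipase A2 and platelet-activating factor genes, Pla2g7 was the 1 of 11 measured genes called, and the list median was 0.03. The brightest of the list, Pafah1b1, a subunit of another acetylhydrolase of that factor, had 384, 352 and 385 in the tibialis anterior, against 462, 307 and 273 in the masseter (0.14 ± 0.19, adjusted p = 0.82), and Lpcat1, an acyltransferase of lysophospholipids, gave 0.03 ± 0.18, adjusted p = 0.968. In polyamine metabolism, Smox was the 1 of 9, with a list median of 0.01, and the antizymes Oaz1 and Oaz2 gave -0.02 ± 0.12, adjusted p = 0.956, and -0.06 ± 0.14, adjusted p = 0.9. Padi2 was the only peptidylarginine deiminase of the 4 on the array to pass the filter.

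Phosphatase 1 regulators held 1 further gene called higher of 12 measured. Ppp1r15a, or GADD34, which directs that phosphatase to the initiation factor whose beta subunit is Eif2s2, had signals of 444, 193 and 346 in the tibialis anterior, against 188, 120.1 and 107 in the masseter (1.20 ± 0.22, adjusted p = 0.0479). Tibialis anterior 2 lay close to masseter 1, and the call ended in 7 of 9 alternatives, with adjusted p up to 0.259. Ppp1r3c, which targets the phosphatase to glycogen, gave 0.93 ± 0.28, adjusted p = 0.191 and passed without replicate 2 (adjusted p = 0.0259), and Ppp1r2 gave 0.26 ± 0.16, adjusted p = 0.559.

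Of the slow-fibre list, 3 of 15 genes were higher and 0 lower, with a median of 0.88. Those called were 3 genes that the rule leaves out by name: the slow light chain Myl3 (5.91 ± 0.28, adjusted p = 7.64e-05), the slow light chain Myl2 (3.87 ± 0.30, adjusted p = 0.00114) and the carbonic anhydrase Car3 (1.89 ± 0.11, adjusted p = 0.000225). Fabp3, a carrier of fatty acids, gave 0.25 ± 0.13, adjusted p = 0.481. Of 16 measured genes of the fast-fibre list, 2 were higher and 0 lower, with a median of 0.16: the IIB heavy chain Myh4 (1.47 ± 0.14, adjusted p = 0.00265) and the Z-disc protein Actn3 (0.88 ± 0.15, adjusted p = 0.0342). The fast calcium pump Atp2a1 and the fast light chain Mylpf gave 0.25 ± 0.15, adjusted p = 0.528, and -0.00 ± 0.11, adjusted p = 0.996. Without the intensity trend Myl2, Car3, Myh4 and Actn3 did not pass (adjusted p = 0.062, 0.0644, 0.155 and 0.292), and Actn3 also missed without the filter (adjusted p = 0.138) and with replicate 2 left out (adjusted p = 0.0697). The called genes of both lists were higher in the tibialis anterior, so the lists give no single direction of fibre type. The part of fibre type in the transcripts described here was not tested.

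In the other 9 lists 0 genes passed in either direction. Their medians lay between -0.26 and 0.14, against -0.02 over all kept probe sets. They were purine nucleotide metabolism (10 measured genes), immediate-early and stress-response genes (24), muscle ubiquitin ligase adaptors (10), Notch signalling (16), axon guidance (13), cyclic AMP signalling (17), AMP-activated kinase (7), amino acid metabolism (21) and limb and trunk patterning outside Hox (5). Among the brightest of them were Dusp1, a phosphatase of stress-activated kinases (-0.37 ± 0.17, adjusted p = 0.399), Got1, an aspartate aminotransferase (0.19 ± 0.13, adjusted p = 0.598), and Asb11, an adaptor of ubiquitin ligases in muscle (0.41 ± 0.15, adjusted p = 0.281). The 2 brightest genes of each list were Adk and Adsl, Dusp1 and Mcl1, Asb11 and Trim54, Numb and Hes1, Nrp1 and Sema6c, Gnas and Pde4b, Cab39 and Prkag1, Got1 and Got2, and Tbx15 and Six4. Their log2 differences ran from -0.55 (Tbx15) to 0.44 (Cab39).

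**Figure D5:**
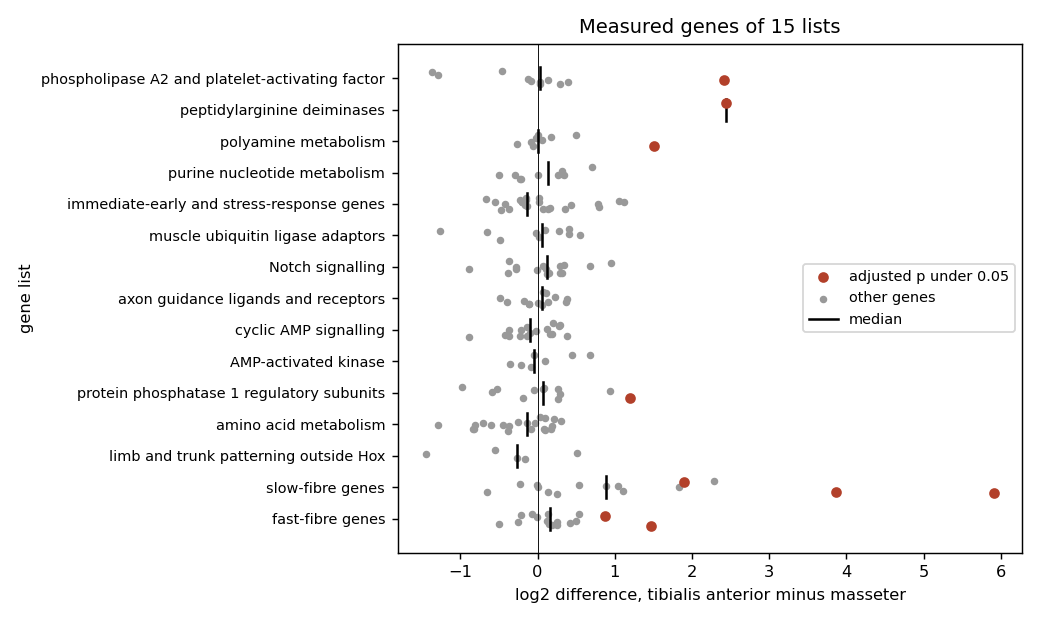
Log2 difference, tibialis anterior minus masseter, of every measured gene of the 15 lists, with genes past an adjusted p of 0.05 in red and list medians as black bars. Single red points mark Pla2g7, Padi2, Smox and Ppp1r15a among genes scattered around 0, and the slow-fibre list reaches 5.91 (Myl3). Pla2g7, Padi2 and Smox were chosen by the rule on the same contrast.

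The sequence before the transcription start was examined for motifs that the selected genes might share. RefSeq promoter entries on GRCm38.p6 existed for 34 of the 43 genes, and the 250 bases before each start were searched on both strands for 8 motifs. The E-box CAGCTG, a word bound by myogenic regulatory factors, was found in 10 of the 34 genes, or 29.4%, against 14.0% of 6764 measured genes. Counted by window, since some genes have several starts, it was in 12 of 52 windows (23.1%) against 13.0% of all 32851, of measured genes or not. Windows can overlap, and the same CAGCTG of Prss23, 94 bases before a start and 71 before another, was counted in each. A loosened MEF2 pattern (CTA and TAG with any 4 bases between them, in place of A or T only) was in 4 of 34 genes (11.8%, against 3.44% of measured genes). These were Gpr146, Nudt4, Phka1 and Prss23. The bases between were A or T only in Gpr146 and Prss23, and included G or C in Nudt4 and Phka1. Other words were near or under their share of measured genes: the MCAT word CATTCC in 3 (8.82%, against 12.9%), TATAAA in 2 (5.88%, against 8.72%), GGAAAA in 8 (23.5%, against 21.9%) and GGGCGG in 20 (58.8%, against 64.0%). TGACGTCA and TCAAGGTCA were in 0, against 2.9% and 0.37%. No test was made of these shares, and a match is a description of letters.

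For 5 selected genes with 1 start in the table, the E-box lies within 100 bases of the start, and the 120 bases before the start are given to show its place, 5′ to 3′ on the gene's strand with the E-box in capitals. The word lies 71 bases before the start in Avpi1, 79 in Mybph, 16 in Nrap, 28 in Parm1 and 38 in Phka1.
Avpi1, chr19:42128994-42129113, minus strand: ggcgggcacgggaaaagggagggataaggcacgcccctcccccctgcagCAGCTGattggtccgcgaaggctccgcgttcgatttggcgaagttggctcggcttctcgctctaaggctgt
Mybph, chr1:134193328-134193447, plus strand: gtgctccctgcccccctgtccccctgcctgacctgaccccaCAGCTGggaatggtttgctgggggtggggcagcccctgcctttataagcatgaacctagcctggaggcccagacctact
Nrap, chr19:56390039-56390158, minus strand: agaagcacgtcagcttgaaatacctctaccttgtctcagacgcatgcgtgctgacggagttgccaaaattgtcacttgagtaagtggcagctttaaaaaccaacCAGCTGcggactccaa
Parm1, chr5:91517580-91517699, plus strand: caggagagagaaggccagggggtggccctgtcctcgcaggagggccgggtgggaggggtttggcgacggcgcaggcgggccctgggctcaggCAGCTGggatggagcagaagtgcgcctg
Phka1, chrX:102644247-102644366, minus strand: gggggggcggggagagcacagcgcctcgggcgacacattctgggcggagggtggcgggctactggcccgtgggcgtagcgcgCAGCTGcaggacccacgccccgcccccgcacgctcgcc
The window of Mybph also holds the reverse complements of the MCAT word and of TATAAA.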

How the data were processed

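Total RNA of 3 tibialis anterior and 3 superficial masseter samples was amplified, biotin-labelled and hybridised to 1 Affymetrix array per sample, per the labels' protocols. Each deposited value is a linear intensity of 1 probe set on 1 array. MAS5 and GCOS made it, per the submitters' processing notes, with settings not given in the sources used here. Intensities near background give imprecise ratios, and the number of arrays limits precision. Detection calls were not used.

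Of 22690 probe sets, 64 controls were left out, and genes were named through the platform annotation. Log2 values were taken after raising signals under 1 to 1. Probe sets with a mean log2 signal at or above the 40th percentile were kept (13576). The comparison used limma 3.58.1 under R 4.3.3, two-sided, with an intensity trend and Benjamini-Hochberg adjustment over all kept probe sets. The replicate number was a block, since paired comparisons are named in the design text. Where the masseter mean was under the filter level, the fold is a lower bound ("at least"), with each masseter array at its signal or that level, whichever is higher. On simulated data for 13576 probe sets in this comparison, 60 of 100 changes of 1 and 95 of 100 changes of 2 on the log2 scale were recovered, with 5 false calls. The simulated spread depended on mean signal alone, as the intensity trend assumes, with no block effect or outlying array. These counts therefore describe an ideal case.

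The members, the gene lists and the tests were chosen with earlier results of these data known. Values were given for the 30 genes with the largest ratio of lowest tibialis anterior to highest masseter signal, for members of the lists, for members whose other probe sets differ in direction, for the edges of the rule, and for the list genes with the smallest adjusted p past the threshold (up to 4) and the 2 brightest. Alternatives covered the block, filter, offset, normalization, variance model, rule limits and left-out samples.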

Additional observations from a re-analysis of the deposited data

How the results depend on the processing

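The tibialis anterior difference of the 46 selected probe sets was recomputed in 15 settings, 672 values in all. It moved by more than 1 SD of the replicates in 11 of them. Its sign is fixed by the rule when arrays are left out, so nothing is read from it. Of the selected probe sets, 28 were called with the block. Without a trend in the variance model 1 was called (Pla2g7), with 13 over all probe sets and 2 list genes in place of 160 and 9. With whole numbered pairs left out 17 to 24 were called (17 without replicate 3), with 119 to 173 over all probe sets and 9 to 12 list genes, and with single arrays left out, in fits without the block, 12 to 14, with 45 to 75 over all probe sets. With no replicate block 31 selected probe sets, 138 probe sets in all and 10 list genes were called. Deviations from the group means of same-numbered samples correlated at 0.04, 0.15 and 0.10 over probe sets. Those of differently numbered samples correlated at -0.16 to 0.05. All of these were weak, so the numbers are not shown to pair the samples. Apart from Ppp1r15a (adjusted p = 0.132 with no replicate block), no named list gene lost its call without the block. The rule itself took 161 probe sets at the looser ratio tried and 16 at a ratio of 2, and 73 to 85 with a single array left out. With quantile normalization it took 51, of which 42 were among the 46. Uncalled list genes near 0 changed sign in some settings. With quantile normalization Trim54 was -0.026. With numbered pairs left out, values ran from -0.070 to 0.17 for Trim54, -0.036 to 0.35 for Pafah1b1, -0.11 to 0.11 for Lpcat1, -0.11 to 0.022 for Oaz1, -0.078 to 0.43 for Hes1, -0.58 to 0.55 for Sema6c, -0.21 to 0.13 for Nrp1, -0.35 to 0.33 for Prkag1, -0.19 to 0.077 for Got2 and -0.10 to 0.052 for Mylpf. The cause of these changes was not tested.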
